A study of Mus musculus with 6 samples.

Results

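Nuclear receptor genes were ranked by their transcript level in the mouse testis at E12.5 of embryonic development, and the difference of Nr6a1 between Ppp1r3c cKO and control testes was placed among them. The 44 genes are mouse nuclear receptors matched by gene symbol, all of them found among the 24470 genes of the table. Nr5a1 (Sf1) and Nr0b1 (Dax1), the relatives best known for gonad formation, were not members and are given separately. Control testes were Ppp1r3c f/f without Cre, and cKO testes were Sf1-Cre Ppp1r3c f/f, all from E12.5 embryos on a C57BL/6 background. Each group had 3 samples, each a pool of 2 gonadal pairs. The Cre transgene is driven by Nr5a1 sequences and is expressed in Sertoli cell progenitors. It was carried by every cKO sample and by no control, so an effect of the Cre transgene and an effect of the Ppp1r3c deletion cannot be told apart here. No label says whether the pools of a group came from separate litters, so the p-values measure the spread between these pools.

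Nuclear receptors are transcription factors that bind DNA through a zinc finger domain and, in most of them, a small lipid-soluble ligand through a second domain. Steroid, thyroid, retinoid and sterol receptors have known hormones or metabolites as ligands, and the orphan receptors have none that is established. Many bind DNA as dimers with a retinoid X receptor, recruit corepressors without ligand and coactivators with it, and so tie gene expression to the hormonal and metabolic state of a cell. Nr6a1, the germ cell nuclear factor GCNF, is an orphan receptor known as a repressor of pluripotency genes such as Pou5f1 and Nanog in differentiating embryonic cells.

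Nr6a1 lies on the minus strand of chromosome 2 (mm10, 38723374 to 38926461), a span of 203.1 kb. Its end nearest Nr5a1 lies 8.832 kb from that gene. RefSeq gives it a distal start and a proximal start, 211.9 kb and 69.97 kb from the start of Nr5a1. The 250 bases before each start are shown because this is the member that rose. Capitals mark AGGTCA, the core motif that many nuclear receptors bind, or its reverse complement TGACCT.
Nr6a1 promoter A (distal start, GRCm38.p6, chr2:38926462-38926711, minus strand): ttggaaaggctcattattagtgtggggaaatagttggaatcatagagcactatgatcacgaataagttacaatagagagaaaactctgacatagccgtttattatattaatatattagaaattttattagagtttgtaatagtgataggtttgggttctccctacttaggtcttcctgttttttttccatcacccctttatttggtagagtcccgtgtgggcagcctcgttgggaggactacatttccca
Nr6a1 promoter B (proximal start, GRCm38.p6, chr2:38784516-38784765, minus strand): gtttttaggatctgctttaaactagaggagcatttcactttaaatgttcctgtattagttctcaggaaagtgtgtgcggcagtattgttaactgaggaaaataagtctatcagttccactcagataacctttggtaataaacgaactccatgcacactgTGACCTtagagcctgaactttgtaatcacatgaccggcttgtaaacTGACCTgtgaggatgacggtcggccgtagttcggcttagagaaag
Promoter B held 2 matches and promoter A held 0. The core motif stood on either strand in 14% of 32851 mouse promoter windows, so a match is common. Among the members, 41 of 44 had windows in RefSeq, and 10 of their 62 windows (16.1%) held it. These belonged to Nr1d2, Nr1h4, Nr5a2, Nr6a1, Pparg, Rarg, Rxra, Rxrg and Thrb. The core motif repeated directly with no spacer, the arrangement that Nr6a1 is known to bind, stood in 2 of all windows (0.00609%) and in 0 member windows. The extended motif TCAAGGTCA, which monomeric receptors such as Nr5a1 and Esrrb bind and which overlaps the direct repeat, stood in 127 (0.387%) and in 0 member windows. No windows were matched for Thra, Hnf4g and Nr3c1.

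Library totals lay between 16139487 counts (control replicate 1) and 44145158 counts, so 3 counts of a gene equalled 0.0679 to 0.185 CPM, the counts after scaling by library size. The targeted gene was checked before the members. Ppp1r3c, a glycogen-targeting subunit of protein phosphatase 1, was at 24.4, 22.1 and 22.9 CPM in control and at 4.71, 5.37 and 5.96 CPM in cKO replicates 1 to 3. Its log2 level fell by 2.11 (SE 0.111), with an edgeR FDR of 0.000126. All 9 Sertoli markers, Sox9 and Amh among them, were detected in every sample, with summed levels of 1900 to 2360 CPM in control and 1990 to 2440 CPM in cKO samples, as the testis label implies. The cKO replicate 3 stood apart from the other 5 samples. Its Xist level was 379 CPM against at most 1 CPM elsewhere, and its 6 pre-granulosa (fetal ovarian supporting cell) markers summed to 268 CPM against 82.8 to 100 CPM elsewhere. Xist RNA marks XX cells, and whether this pool held XX tissue was not tested, so means of the cKO group may not stand for XY testes alone. The 10 germ cell markers were lower in the cKO mean, with a median log2 fold change of -0.90 and sums of 480, 760 and 773 CPM in control and 481, 219 and 361 CPM in cKO replicates 1 to 3. edgeR called 0 of them (0.0385% of all tested genes), DESeq2 called 2 lower (0.779% of all genes it tested, in either direction), and 9 had an unadjusted edgeR p under 0.05 (11.4% of all). In whole testis RNA, fewer cells of a type and less RNA per cell cannot be told apart.

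The members spanned a wide range of expression. At least 1 count was found in every sample for 40 of the 44, 31 lay above 1 CPM in every sample, and 18 lay above 10 CPM. For comparison between genes, CPM were divided by the exon length of each gene in kb. On this scale the highest control means were those of Nr2f2 (COUP-TFII, a receptor of fetal interstitial and steroidogenic progenitor cells) at 58.7 ± 4.34 CPM per kb (SD, n = 3) and Thra (thyroid hormone receptor alpha) at 55.5 ± 4.59. Nr1h2 (LXR beta, an oxysterol receptor) followed at 28.3 ± 0.974, Rxrb (a retinoid X receptor) at 25.4 ± 1.82 and Nr2f6 (an orphan related to Nr2f2) at 23.1 ± 2.12 CPM per kb. By CPM, 96.5% of the tested genes lay below Nr2f2 and 92.4% below Thra.

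Nr2f2 and Thra could not be ordered, since their control samples overlapped on the per kb scale, but every sample of both lay above every sample of Nr1h2. Nr1h2, Rxrb, Nr2f6 and Rxra then formed a tier in which each gene overlapped the next. Below it, Rara, Nr2c2, Nr4a1 and Ppard each stood clear of the gene before them in the order, at 18.4, 14.9, 12.8 and 9.13 CPM per kb. From Ppard to Esrra, and again from Ppara to Pparg, no neighbouring receptors were separated. In all, 10 of the 43 steps between neighbours were clear in control. The lowest were Nr2e1 (a neural stem cell receptor) with 0 counts in all 3 controls, Hnf4a and Hnf4g (receptors of liver, gut and kidney), Nr1i3 (a xenobiotic receptor), Rorb and Nr2e3 (a photoreceptor gene), all with control means below 0.05 CPM per kb. These 6 did not pass the filter on low counts and were not tested.

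**Figure D1:**
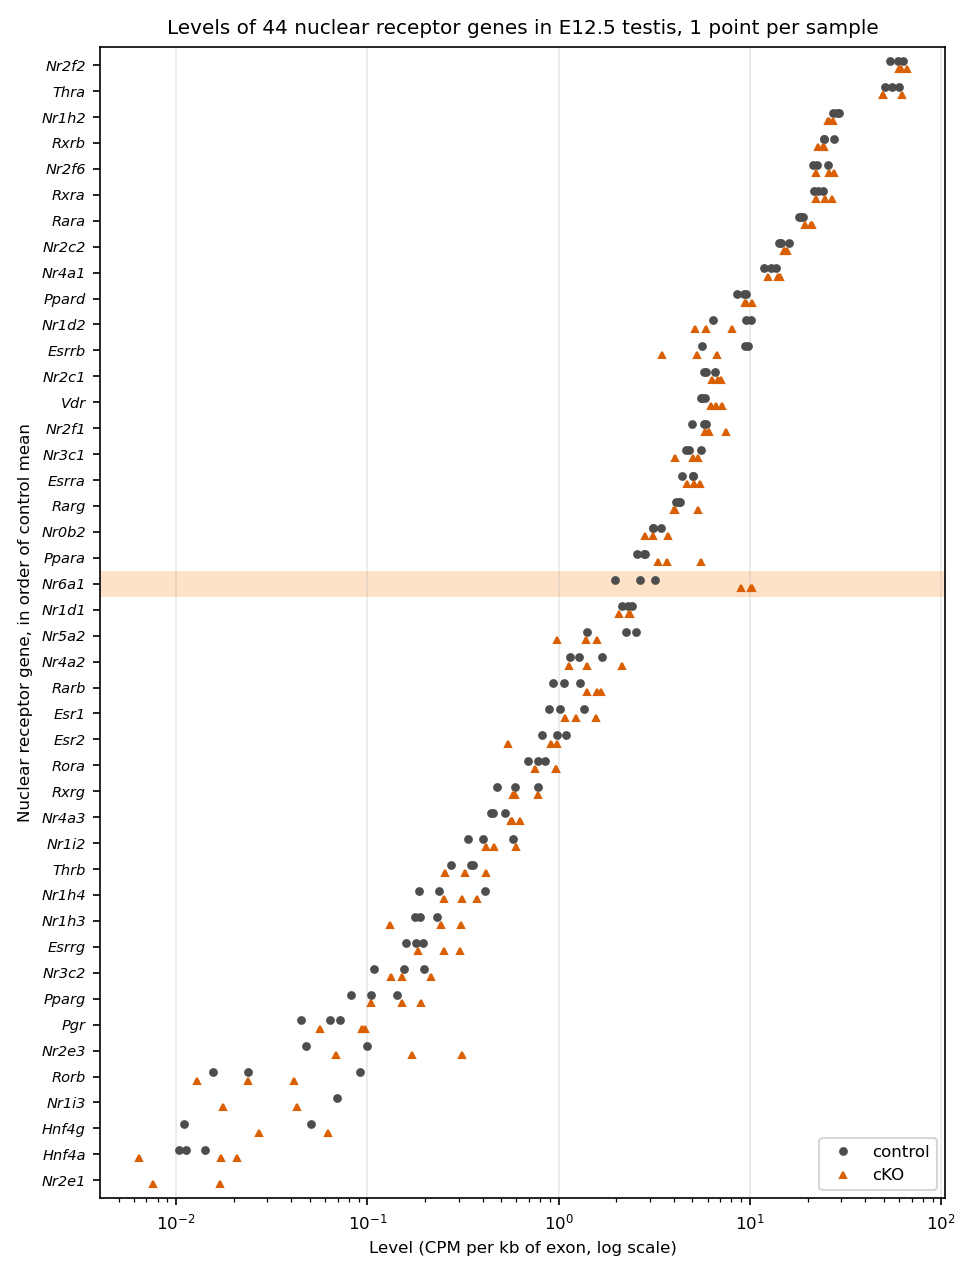
Levels of the 44 nuclear receptor genes in each sample, in CPM per kb of exon on a log scale, with genes ordered by their control mean. Circles are the 3 control and triangles the 3 cKO samples, and samples with 0 counts are not drawn. Nr6a1 (shaded) moves from rank 21 in control to rank 10 in cKO testes, and 3 other members move by more than 2 ranks.

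Nr6a1 stood in the middle of this order in control testes. Its level was 1.98, 3.19 and 2.65 CPM per kb in control replicates 1 to 3, a mean of 2.61 ± 0.609 (SD, n = 3) and rank 21 of 44. All control samples of 18 members lay above those of Nr6a1 and those of 21 lay below, while 4 members overlapped it, among them its neighbours Ppara and Nr1d1. By CPM, 40.8% of all tested genes lay below it. In cKO testes it was at 10.1, 10.3 and 9.02 CPM per kb, a mean of 9.79 ± 0.676 (SD, n = 3) and rank 10. There 9 members lay wholly above it and 33 wholly below. Nr4a1, at rank 9, stood clear above it, and Ppard, at rank 11, overlapped it.

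The rank of Nr6a1 within single samples was 22, 19 and 20 in control and 11, 10 and 11 in cKO replicates 1 to 3. Its share of the summed per kb level of all members was 0.771% in control and 2.79% in cKO testes. Ranks of 3 other members moved by more than 2 places. Nr1d2 went from rank 11 to 15, Esrrb from 12 to 16, and the untested Nr2e3 from 39 to 36 on 0 to 21 counts per sample.

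The rise of Nr6a1 was the only one called among the members. Its counts were 195, 856 and 658 in control and 2451, 2241 and 1808 in cKO replicates 1 to 3, or 12, 19.4 and 16.1 CPM against 61.1, 62.3 and 54.7 CPM. The lowest cKO sample lay far above the highest control sample. The log2 fold change was 1.88 (SE 0.140), a 3.68-fold difference (edgeR FDR 0.00152), and an exact two-sided permutation test gave p = 0.1, below which groups of 3 cannot go. edgeR called 6 of 15577 genes at an FDR under 0.05 (0.0385%), 5 of them higher (0.0321%) and 1 lower (0.00642%). A log2 fold change at or above that of Nr6a1 was seen for 26 tested genes (0.167%). Without single samples its log2 fold change lay between 1.74 and 2.04, and without control replicate 3 the edgeR FDR was 0.0539. Without cKO replicate 3 it was 1.94. DESeq2 gave 1.89 (FDR 1.5e-41) and called 0.779% of 14243 genes.

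Of the 44 members, 38 were tested, with 29 log2 fold changes above 0 and 9 below. Over all tested genes 49.1% were above 0. The members' median log2 fold change was 0.11, against -0.0034 over all tested genes. edgeR and DESeq2 each called 1 member higher and 0 lower. At an unadjusted edgeR p under 0.05 there were 8 members (21.1%), beside 11.4% of all tested genes. Of these 5 had higher and 3 lower cKO means, where the shares over all genes were 5.56% and 5.8%. Without Nr6a1 it was 7 of 37 (18.9%). These counts rested on single samples: the higher ones numbered 9 without cKO replicate 1 and 3 without control replicate 1 or cKO replicate 2, and the lower ones numbered 0 without control replicate 2 or 3. Groups did not overlap for 7 members (18.4%), 6 higher and 1 lower, against 15.6% of all tested genes (8.42% higher and 7.17% lower). Apart from Nr6a1, the members' log2 fold changes lay between -0.70 and 0.61.

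**Figure D2:**
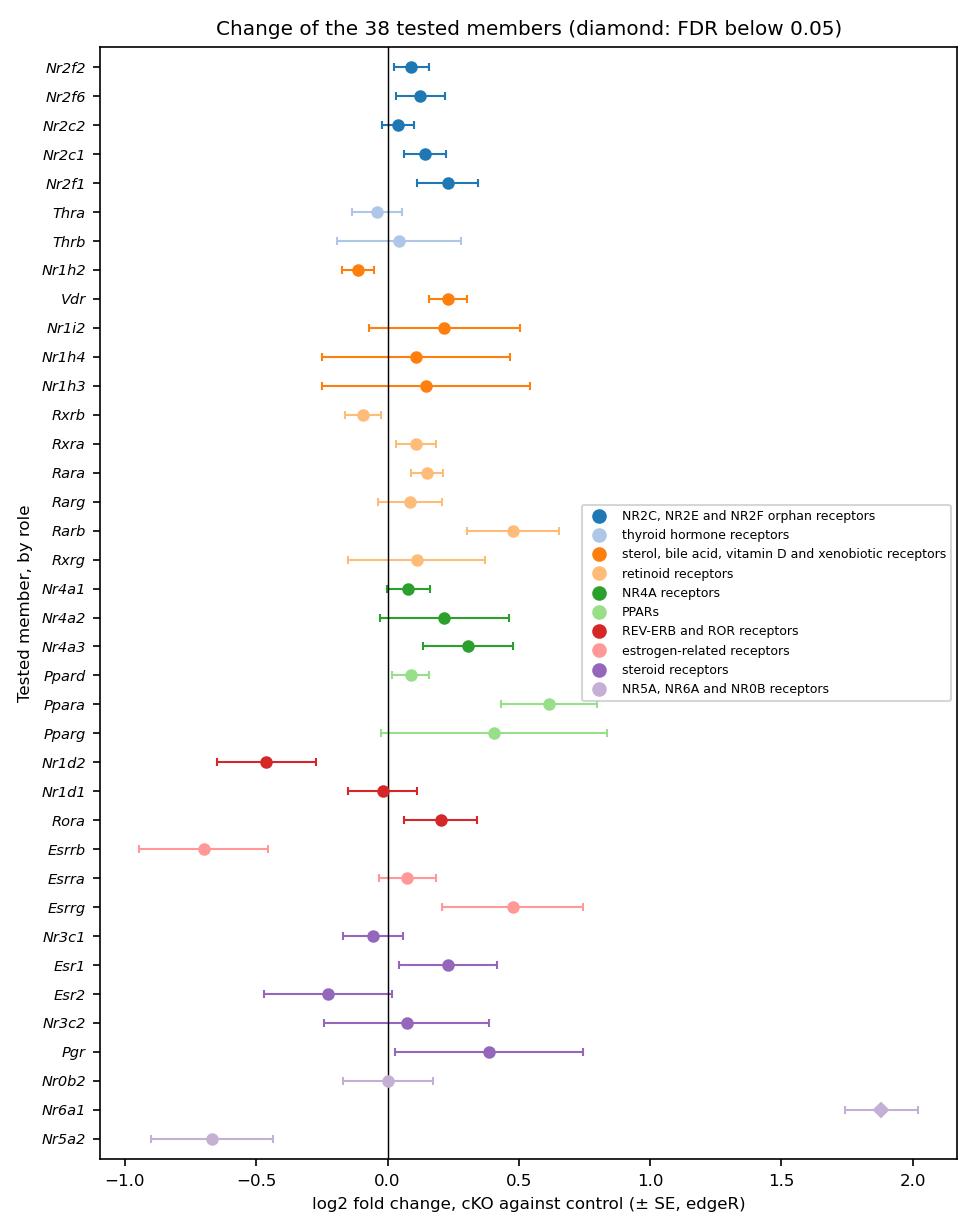
Log2 fold change of cKO against control for the 38 tested members, ordered by role, with bars of ± 1 SE from edgeR. The diamond is Nr6a1 at 1.88, the only member with an FDR under 0.05, and the 4 members beyond 0.5 in either direction are Nr6a1, Ppara, Esrrb and Nr5a2.

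Among the COUP-TF, testicular and NR2E orphan receptors 5 of 7 were tested, all but the NR2E genes Nr2e1 and Nr2e3. All 5 had cKO means above control, with none called. Nr2f2 was at 288, 263 and 305 CPM in control and 298, 322 and 292 CPM in cKO replicates 1 to 3, a log2 fold change of 0.09 (SE 0.0666). Nr2f6 was at 56.5, 50 and 47.4 CPM in control and 49.3, 57.1 and 60.8 CPM in cKO samples. The groups overlapped for both genes. Nr2f2 took 63.2% to 70.4% of the summed per kb level of the 3 COUP-TF genes in each sample. Nr2c2 (TR4), with a CPM mean of 114 in control and 117 in cKO testes, took 68.8% to 73.4% of the per kb level of the TR2 and TR4 pair. Nr2c1 (TR2) and Nr2f1 (COUP-TFI) had log2 fold changes of 0.14 and 0.23.

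Thra made up 99.3% to 99.5% of the per kb level of the thyroid hormone receptors in every sample, and Thrb the rest. Thra was at 190, 161 and 175 CPM in control and 157, 197 and 157 CPM in cKO replicates 1 to 3. The groups overlapped, the log2 fold change was -0.04 (SE 0.0967), and its sign turned when control replicate 1, cKO replicate 1 or cKO replicate 3 was left out. Thra overlaps Nr1d1 by 1.075 kb on the opposite strand of chromosome 11, and the counting was strand-specific. Rara lies nearby, and none of the 3 genes was called.

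Retinoid receptors carry the signal of retinoic acid, which the fetal testis degrades. The retinoic acid receptors were led by Rara, with 74.1% to 78.9% of their per kb level, then Rarg (15.1% to 20.5%) and Rarb (3.98% to 6.27%). Rara was at 76.9, 75.3 and 79.1 CPM in control and 80.9, 88.3 and 87.4 CPM in cKO replicates 1 to 3. Every cKO sample lay above every control, but the difference was small (log2 fold change 0.15, SE 0.0596, unadjusted edgeR p 0.0316, FDR 0.404). The unadjusted edgeR p of Rara was 0.0679 to 0.122 without control replicate 1, control replicate 2, cKO replicate 2 or cKO replicate 3. Rarb was at 2.89, 4.05 and 3.29 CPM in control and 4.34, 4.92 and 5.17 CPM in cKO samples (log2 fold change 0.48, SE 0.175, unadjusted edgeR p 0.0225, FDR 0.385). Its groups did not overlap either, but the unadjusted edgeR p lay above the threshold (0.0519 to 0.0703) without control replicate 1, control replicate 3, cKO replicate 2 or cKO replicate 3. Rarg overlapped, with a log2 fold change of 0.09 that lay between -0.06 and 0.16 without single samples.

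Rxra and Rxrb, the partners of many other receptors, held 44.5% to 51.9% and 46.6% to 54.0% of the retinoid X receptor level per kb, and Rxrg 0.976% to 1.53%. Rxrb was at 79.5, 70.2 and 70.6 CPM in control and 65.4, 69.9 and 70.6 CPM in cKO replicates 1 to 3, with a log2 fold change of -0.09 (SE 0.0696). Rxra had control and cKO means of 116 and 125 CPM and a log2 fold change of 0.11. The groups overlapped for all 3 of these genes.

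Among the sterol, bile acid, vitamin D and xenobiotic receptors 5 of 6 were tested and 0 were called. Nr1h2 took 98.8% to 99.5% of the per kb level of the LXR pair. It was at 56.8, 58.3 and 54.5 CPM in control and 50.9, 54.1 and 51.8 CPM in cKO replicates 1 to 3. It was the single member whose cKO samples all lay below control, by a log2 difference of -0.11 (SE 0.0610, unadjusted edgeR p 0.0934). Vdr, the vitamin D receptor, was at 24.3, 25.5 and 24.6 CPM in control and 27.4, 31.0 and 29.0 CPM in cKO samples. The Vdr groups did not overlap (log2 fold change 0.23, SE 0.0724, unadjusted edgeR p 0.0104, FDR 0.377), and without cKO replicate 3 the log2 fold change was 0.24. Nr1i2 (PXR), Nr1h4 (the bile acid receptor FXR) and Nr1h3 (LXR alpha) lay between 0.199 and 0.439 CPM per kb in control and had log2 fold changes of 0.11 to 0.22, each smaller than its SE.

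PPARs bind fatty acids and control genes of lipid oxidation and storage. Ppard, with 74.6% to 77.8% of the PPAR level per kb in control samples, was at 31.2, 28.2 and 30.4 CPM in control and 33.4, 31.1 and 30.8 CPM in cKO replicates 1 to 3. The Ppard groups overlapped (log2 fold change 0.09, SE 0.0707). Ppara, the receptor of fatty acid oxidation genes, was at 9.91, 9.75 and 8.98 CPM in control and 11.5, 12.8 and 19.5 CPM in cKO samples. All cKO samples lay above control, with cKO replicate 3, the sample of high pre-granulosa markers, above the rest. The log2 fold change of Ppara was 0.61 (SE 0.183, unadjusted edgeR p 0.00783, FDR 0.377), and without cKO replicate 3 it was 0.36 (SE 0.123, unadjusted edgeR p 0.0169). Its DESeq2 FDR was 0.0722 over all samples and 0.00921 without cKO replicate 1. The part of the pre-granulosa markers in this difference was not tested. Pparg was at 0.195 to 0.454 CPM over all samples.

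NR4A receptors are orphan receptors induced early by many stimuli, and Nr4a1 is known in Leydig cell steroidogenesis. Nr4a1 held 84.0% to 88.8% of the NR4A level per kb. It was at 29.2, 33.9 and 31.9 CPM in control and 35.4, 34.7 and 30.6 CPM in cKO replicates 1 to 3, with overlapping groups. All 3 NR4A genes had log2 fold changes above 0, of 0.08, 0.22 and 0.30 for Nr4a1, Nr4a2 and Nr4a3, but Nr4a2 was at -0.08 without cKO replicate 1. Nr4a3 was at 2.52, 2.58 and 3.00 CPM in control and 3.24, 3.23 and 3.60 CPM in cKO samples, without overlap (unadjusted edgeR p 0.107). The 8 immediate early genes measured beside them, such as Fos and Egr1, had a median log2 fold change of 0.33, with sums of 150, 142 and 140 CPM in control and 184, 159 and 143 CPM in cKO samples. The part of this in the NR4A values was not tested.

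REV-ERB receptors repress and ROR receptors activate genes of the circadian clock. Nr1d2 (REV-ERB beta) was at 29.7, 44.5 and 47.1 CPM in control and 37.3, 24.0 and 27.6 CPM in cKO replicates 1 to 3. The groups overlapped, because control replicate 1 was the lowest control and cKO replicate 1 the highest cKO sample. The log2 fold change was -0.46 (SE 0.188, unadjusted edgeR p 0.0358, FDR 0.413), and DESeq2 called it lower without control replicate 1 (FDR 0.0195) and without cKO replicate 1 (FDR 0.0215). Nr1d1 (REV-ERB alpha) was at 6.59, 6.22 and 5.81 CPM in control and 6.38, 5.62 and 6.32 CPM in cKO samples, a log2 fold change of -0.02 (SE 0.132). Rora had a control mean of 8.74 CPM and a log2 fold change of 0.20.

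Estrogen-related receptors are orphans, of which Esrra is known for mitochondrial genes and Esrrb for pluripotency and the germ line. Esrrb was at 26.0, 45.0 and 43.6 CPM in control and 30.9, 15.9 and 24.5 CPM in cKO replicates 1 to 3. The groups overlapped at the same samples as those of Nr1d2. The log2 fold change was -0.70 (SE 0.245, unadjusted edgeR p 0.018, FDR 0.38). Esrra, at 10.8 CPM in control and 11.4 CPM in cKO testes, had a log2 fold change of 0.08. The share of Esrrb in the per kb level of the 3 genes was 51.9% to 67.3% in control and 39.0% to 58.0% in cKO samples, and that of Esrra was 31.4% to 46.3% and 40.4% to 57.6%. Esrrg lay below 0.25 CPM per kb in both means, with a log2 fold change of 0.48 (SE 0.269).

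Steroid receptors were low at this stage and 0 of 5 were called. Nr3c1, the glucocorticoid receptor, held 65.8% to 69.2% of their summed per kb level, at 4.99 ± 0.509 CPM per kb in control and 4.81 ± 0.686 in cKO testes (SD, n = 3 each). Esr1 and Esr2, the estrogen receptors alpha and beta, were at 1.09 and 0.962 CPM per kb in control, an order that their overlapping samples did not resolve. Esr1 held 45.0% to 58.2% of their level in control and 52.3% to 69.4% in cKO samples. Nr3c2 (mineralocorticoid receptor) and Pgr (progesterone receptor) were at 0.154 and 0.0602 CPM per kb in control.

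Nr5a2 (LRH-1) is the closest relative of Nr5a1. Nr5a2 was at 6.83, 12.3 and 10.9 CPM in control and 7.68, 4.76 and 6.75 CPM in cKO replicates 1 to 3. The highest cKO sample overlapped the lowest control. The log2 fold change was -0.67 (SE 0.232, unadjusted edgeR p 0.0175, FDR 0.38), and DESeq2 gave an FDR of 0.142, or 0.0115 without control replicate 1. Nr0b2 (SHP), a receptor without a DNA-binding domain, was at 3.51, 3.53 and 3.86 CPM in control and 3.52, 4.23 and 3.18 CPM in cKO samples, a log2 fold change of 0.00077 (SE 0.172). Nr5a1 itself was at 372, 360 and 311 CPM in control and 512, 593 and 546 CPM in cKO samples, above every member on the per kb scale (109 and 173 CPM per kb). Its log2 level rose by 0.66 (SE 0.0801), with an edgeR FDR of 0.0401. The edgeR call was lost when any sample other than cKO replicate 1 was left out (FDR 0.0731 to 0.212). Without single samples the log2 fold change of Nr5a1 lay between 0.585 and 0.716. Every cKO sample lay above every control, and DESeq2 over all samples gave 0.668 (FDR 4.98e-12). Nr0b1 was at 19.6, 18.6 and 11.5 CPM in control and 19.0, 18.6 and 24.9 CPM in cKO samples (log2 fold change 0.34, SE 0.193, edgeR FDR 0.52). Of the 5 members on chromosome 2, Rxra, Nr1h3, Hnf4a, Nr4a2 and Nr6a1, none but Nr6a1 was called. The others lie far from Nr6a1, with starts at 27677201 (Rxra), 57107226 (Nr4a2), 91184061 (Nr1h3) and 163506857 (Hnf4a). Nr5a1, which lies 8.832 kb from Nr6a1 and was called higher over all samples, is not a member and so is not in this count.

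**Figure D3:**
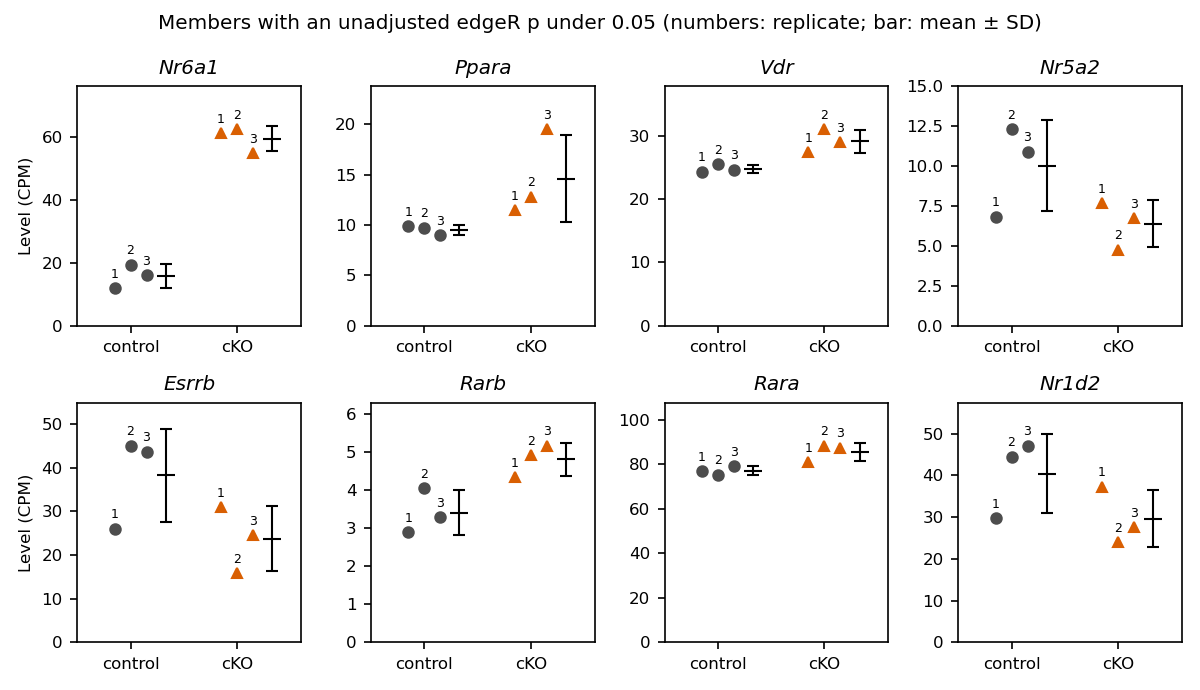
CPM of the 8 members with an unadjusted edgeR p under 0.05 in each sample, on axes that start at 0, with replicate numbers beside the points and bars of mean ± SD (n = 3). The control and cKO points do not overlap for Nr6a1, Ppara, Vdr, Rarb and Rara, and overlap for Nr5a2, Esrrb and Nr1d2.

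The 3 members with lower cKO means and an unadjusted p under 0.05, Esrrb, Nr5a2 and Nr1d2, were highest in control replicates 2 and 3 and lowest in cKO replicate 2, as was the summed level of the germ cell markers. Without control replicate 2 or control replicate 3 none of the 3 had an unadjusted edgeR p under 0.05 (0.0606 to 0.147). The sum of 9 germ cell markers, taken without Pou5f1, was 411, 651 and 673 CPM in control and 412, 186 and 308 CPM in cKO replicates 1 to 3. Per 1000 CPM of these markers, Esrrb was at 63.3, 69.2 and 64.8 CPM in control and 74.9, 85.9 and 79.6 CPM in cKO samples. Nr5a2 was at 16.6, 18.9 and 16.3 against 18.6, 25.6 and 21.9 CPM on that scale. Relative to the markers, the cKO samples of Esrrb lay above control and those of Nr5a2 overlapped control at its upper end. Such a ratio rises wherever the marker sum falls further than the gene, so it gives no level per germ cell. In cKO replicates 1 to 3 the marker sum was at 71.3%, 32.1% and 53.3% of its control mean, and Esrrb at 80.9%, 41.7% and 64.1%. Nr1d2 was at 72.3, 68.4 and 70.1 CPM per 1000 CPM of germ cell markers in control and 90.5, 130 and 89.6 in cKO samples. Nr6a1 was at 29.2, 29.8 and 23.9 in control and 148, 336 and 178 in cKO samples. This separation followed from its higher CPM and the lower mean marker sum in cKO samples, so it adds no support. Whether the Nr6a1 RNA came from germ cells was not tested. The part of the germ cell markers in the 3 lower values was not tested.

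**Figure D4:**
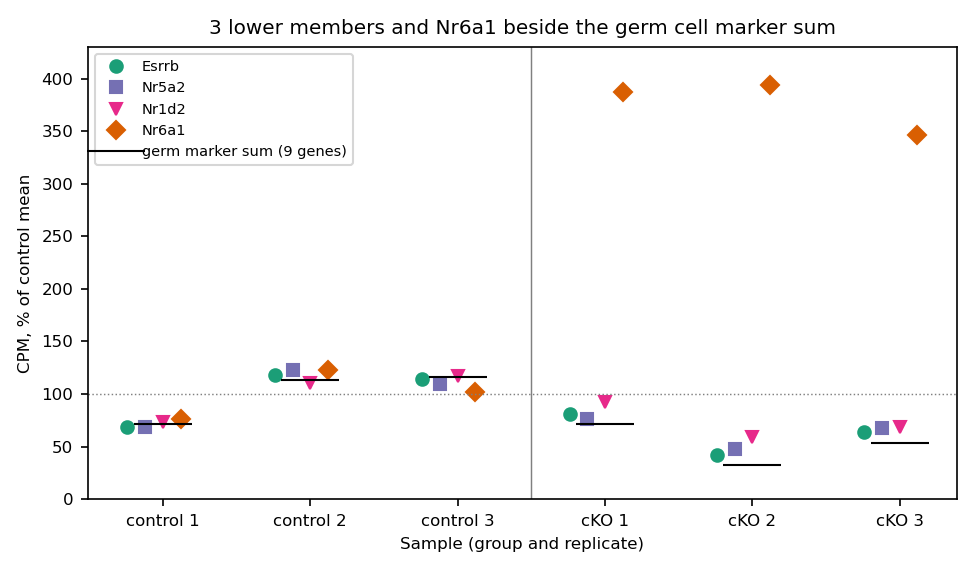
CPM of Esrrb, Nr5a2, Nr1d2 and Nr6a1 in each sample, as a percent of the control mean, with black lines for the sum of 9 germ cell markers on the same scale. Nr6a1 lies at 346% to 394% in the cKO samples, while the other 3 genes lie between 41.7% and 92.3% and the marker sum between 32.1% and 71.3%.

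Receptors act through coactivators and corepressors, and 24 of these were examined. edgeR and DESeq2 called 0 of the 24 in either direction, 3 had an unadjusted edgeR p under 0.05, a share near the 11.4% of all tested genes, and the median log2 fold change was 0.06. Ncoa7, an estrogen receptor coactivator, was at 51.8, 50.8 and 51.9 CPM in control and 61.1, 62.8 and 59.7 CPM in cKO replicates 1 to 3 (log2 fold change 0.25, SE 0.0575, unadjusted edgeR p 0.00176, FDR 0.377). Ppargc1b, a coactivator of PPARs and estrogen-related receptors, was at 1.72, 1.90 and 1.78 CPM against 2.69, 2.53 and 3.48 CPM (log2 fold change 0.68, SE 0.202, unadjusted edgeR p 0.00792, FDR 0.377). Neither pair of groups overlapped. Pprc1 and Trim24 had log2 fold changes of -0.22 and 0.13, with overlapping groups.

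Of 26 genes known as targets of these receptors 22 were tested, and 0 were called by edgeR or DESeq2. Those with 0 counts in at least 1 sample, Cyp26a1, Stra8, Cyp24a1 and Bmp15, were not tested. An unadjusted edgeR p under 0.05 was found for 6 (27.3%, against 11.4% of all tested genes), 3 with higher and 3 with lower cKO means (5.56% and 5.8% over all genes), and the median log2 fold change was 0.04. Pou5f1 and Nanog, known targets of Nr6a1 in other cells, are also germ cell genes. Pou5f1 was at 68.3, 110 and 100 CPM in control and 68.9, 33.6 and 53.5 CPM in cKO replicates 1 to 3 (log2 fold change -0.84, SE 0.241, unadjusted edgeR p 0.00637, FDR 0.377). Nanog was at 15.6, 29.3 and 27.1 CPM against 17.9, 8.2 and 14.2 CPM (log2 fold change -0.86, SE 0.282, unadjusted edgeR p 0.0135, FDR 0.377). Both followed the order of the samples seen for Esrrb, and the groups overlapped. Per 1000 CPM of the 9 germ cell markers, Pou5f1 was at 166, 169 and 149 CPM in control and 167, 181 and 174 CPM in cKO samples, and Nanog at 37.9, 45.0 and 40.3 against 43.4, 44.2 and 46.1 CPM.

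Abcg1, a sterol exporter and LXR target, was at 33.6, 33.8 and 41.7 CPM in control and 31.7, 27.0 and 25.7 CPM in cKO replicates 1 to 3, without overlap (log2 fold change -0.37, SE 0.108, unadjusted edgeR p 0.0069, FDR 0.377). The other LXR targets of the list, Abca1, Srebf1 and Mylip, had overlapping groups and log2 fold changes of -0.006, 0.05 and -0.07. Angptl4, a PPAR target that inhibits lipoprotein lipase, was at 47.7, 46.5 and 37.6 CPM against 48.4, 53.1 and 69.7 CPM. The Angptl4 groups did not overlap (log2 fold change 0.38, SE 0.138, unadjusted edgeR p 0.0216, FDR 0.382), and the highest value was that of cKO replicate 3, as for Ppara. Without cKO replicate 3 its log2 fold change was 0.21 (unadjusted edgeR p 0.08). The other PPAR targets of the list, Cpt1a, Pdk4 and Plin2, had overlapping groups and log2 fold changes of 0.05, 0.21 and 0.12. Cyp26b1, which degrades retinoic acid in the fetal testis, had means of 295 and 332 CPM with overlapping groups and was not called (chosen after its values were seen).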

How the data were processed

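Gene counts of 6 whole testis RNA samples were analysed. The authors made stranded mRNA libraries, aligned read pairs to mm10 with STAR (version 2.5) and counted reads per curated RefSeq gene, strand-specifically, with featureCounts (Subread 1.5.0-p1). The deposited values are these raw counts, and 2 symbols stood on more than 1 row. The submitters' labels gave groups and replicate numbers. Genes were tested with edgeR 4.0.16 in R 4.3.3 (filterByExpr with a minimum count of 10, TMM, quasi-likelihood F-test on all 6 samples without covariates), and p-values were adjusted by Benjamini-Hochberg over 15577 genes. The SE was derived from the F statistic. "Called" means an FDR under 0.05. CPM used TMM-scaled totals. Because the deposited table gives no length, CPM per kb used exon lengths of GENCODE M21 transcripts paired with curated RefSeq accessions. Neighbours were called clear where their sample ranges did not overlap. DESeq2 1.42.0 (the authors' tool), limma-voom (3.58.1), RLE factors, other filters, thinned libraries, a replicate block and leaving out samples were alternatives. DESeq2 without single samples and lengths over all GENCODE basic transcripts were added after seeing the data. The tests were tested on simulated counts.

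The members and all lists were chosen with earlier results of these data known, the rise of Nr6a1 included, so it is a description here. Values in every sample are given for members called or at an unadjusted edgeR p under 0.05, the 5 highest, the neighbours of Nr6a1 in the order, Nr5a1, Nr0b1, and up to 4 genes per list with the lowest p. Nr0b2 and Nr4a3 were also given in full after their values were seen. The other marker lists gave no call by edgeR or DESeq2. Their median log2 fold changes were 0.04 (Sertoli), -0.31 (fetal Leydig, 238, 330 and 435 CPM in control and 280, 369 and 162 CPM in cKO samples), -0.06 (interstitial), -0.006 (endothelial), -0.05 (macrophage), -0.07 (erythroid), 1.02 (pre-granulosa) and 0.52 (mesonephros, with Cdh16 and Wnt9b at 0 in at least 1 sample).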

Additional observations from a re-analysis of the deposited data

How the results depend on the processing

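The call of Nr6a1 held in limma-voom, and in edgeR with RLE factors, no filter, the stricter filter, thinned libraries and the replicate block. In edgeR the number of members called higher was 0 to 1 when single samples were left out. It was 0 without control replicate 3, where the log2 fold change was 1.87 (FDR 0.0539), and over all samples left out in turn it lay between 1.74 and 2.04. With DESeq2 without single samples the number called higher was 0 to 2. Without control replicate 3 Nr6a1 got no adjusted p (log2 fold change 1.9, unadjusted DESeq2 p 8.28e-28), and without cKO replicate 1 Ppara was added. Members called lower with DESeq2 were 0 to 2, being Nr1d2 and Nr5a2 without control replicate 1 and 1 gene, Nr1d2, without cKO replicate 1. Members with higher means at an unadjusted p under 0.05 numbered 5, and 3 to 9 in edgeR or 3 to 8 in DESeq2 without single samples. The 3 with lower means became 1 in DESeq2, and 0 to 3 with either tool without single samples. The median log2 fold change of the members was 0.0817 to 0.127 without single samples. Members above 0 numbered 26 to 30 of 38 without single samples, 24 of 33 under the stricter filter and 25 of 35 in thinned libraries. The cause of these shifts was not tested.

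By CPM without division by length Nr6a1 had rank 17 in control and rank 7 in cKO testes. Leaving out single samples gave ranks of 20 to 21 in control and 10 to 11 in cKO testes. Of the 38 tested members, 11 turned sign when some single sample was left out: Thra, Thrb, Nr3c1, Nr3c2, Rarg, Rxrg, Nr0b2, Nr1d1, Nr4a2, Nr1h3 and Nr1h4. None of them was called or had an unadjusted p under 0.05 over all samples. Thra lay between -0.158 and 0.0191 without single samples. Nr1d1 was at 0.0717 in thinned libraries, and between -0.0716 and 0.0394 without single samples. Same-numbered samples did not deviate together (correlations -0.203, -0.266 and -0.13) and share a number only. A replicate block left edgeR with 3 calls in all, Nr6a1 among them, and gave Nr5a1 an FDR of 0.267. The depth of control replicate 1 limits what can be seen of members below 0.185 CPM, and 3 samples per group limit calls of differences near the size of the members' SE.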
